A study of Homo sapiens with 17 samples.

Results

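The genes described here are 37 human genes whose products put the histone variant H2A.Z into chromatin, take it out, or recognise it there. They were taken from a list of named subunits of the SRCAP, EP400/TIP60 and INO80 complexes and of H2A.Z chaperones or readers. The rule for the list names no measured value, but the list was made with earlier results of these data known. The share of its genes that hold H2A.Z therefore carries no test. All 37 were found among the 20037 coding genes that RefSeq annotates on GRCh38.p14. The measurement is where tagged H2A.Z itself lay at these genes in Caco-2/15, a clone of a human colon carcinoma line whose cells differentiate towards enterocytes after they reach confluence. It is a map of chromatin, and the expression of the genes was not measured in the data used here. All cells were heterozygous for a Flag tag that CRISPR-Cas9 editing had added near the 3′ end of H2AFZ, the H2AZ1 gene for H2A.Z.1, or of H2AFV, the H2AZ2 gene for H2A.Z.2. The untagged allele of the same gene and the other isoform stayed in each line, and the labels do not say whether a tagged line is a single clone. The 4 groups were H2A.Z.1 subconfluent, H2A.Z.1 held for 7 days after confluence, H2A.Z.2 subconfluent and H2A.Z.2 held for 7 days after confluence, each with 2 samples named Exp1 and Exp2. No label says that the 2 samples came from separate cultures, so p-values measure the spread between these samples, which may be technical.

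H2A.Z is a variant of histone H2A found mainly in the nucleosomes that flank active and poised promoters and enhancers. The SRCAP and EP400/TIP60 complexes use an ATPase to exchange H2A for H2A.Z, and the TIP60 acetyltransferase also acetylates histones, H2A.Z included. The INO80 complex slides and spaces nucleosomes and has been reported to act on H2A.Z in the reverse direction. ANP32E is a chaperone that extracts H2A.Z, and readers such as PWWP2A and BRD2 bind nucleosomes that carry it. The complexes share several parts, among them the RUVBL1 and RUVBL2 ATPases, which stand in all of them.

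The promoters of 4 members are shown because they carry the contrasts described below. KAT5 had the strongest H2A.Z intervals of the module, INO80D held the next highest place, ACTR5 had a differently divided H2A.Z domain in the lists of the 2 isoforms, and YY1 lacked an interval in most lists. The sequences are the 300 bases of RefSeq (GRCh38.p14), 250 before the start of transcription and 50 from it, read 5′ to 3′ on the gene's strand. They lie at chr11:65712002-65712301 (plus strand, KAT5), chr2:206086125-206086424 (minus strand, INO80D), chr20:38748210-38748509 (plus strand, ACTR5) and chr14:100238894-100239193 (plus strand, YY1). Capitals mark matches, on either strand, to the 7 short motifs named in the account of promoter sequences.
KAT5: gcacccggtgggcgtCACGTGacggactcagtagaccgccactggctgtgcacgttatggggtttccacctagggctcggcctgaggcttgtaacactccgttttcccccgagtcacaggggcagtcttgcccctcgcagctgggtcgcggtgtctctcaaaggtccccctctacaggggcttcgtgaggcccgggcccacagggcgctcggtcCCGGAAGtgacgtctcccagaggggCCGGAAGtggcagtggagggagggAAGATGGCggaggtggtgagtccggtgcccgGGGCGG
INO80D: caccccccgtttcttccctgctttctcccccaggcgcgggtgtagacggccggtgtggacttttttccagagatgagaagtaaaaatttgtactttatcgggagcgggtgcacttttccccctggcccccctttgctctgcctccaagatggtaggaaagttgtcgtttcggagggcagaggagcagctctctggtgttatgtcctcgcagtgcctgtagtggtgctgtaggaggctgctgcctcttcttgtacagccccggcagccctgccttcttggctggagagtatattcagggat
ACTR5: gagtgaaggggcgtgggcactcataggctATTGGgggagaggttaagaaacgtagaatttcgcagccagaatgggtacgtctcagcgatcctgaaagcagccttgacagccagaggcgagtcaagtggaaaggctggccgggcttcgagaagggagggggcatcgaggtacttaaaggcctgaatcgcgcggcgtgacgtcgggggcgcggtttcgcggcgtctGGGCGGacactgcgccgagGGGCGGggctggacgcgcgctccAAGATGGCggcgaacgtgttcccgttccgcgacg
YY1: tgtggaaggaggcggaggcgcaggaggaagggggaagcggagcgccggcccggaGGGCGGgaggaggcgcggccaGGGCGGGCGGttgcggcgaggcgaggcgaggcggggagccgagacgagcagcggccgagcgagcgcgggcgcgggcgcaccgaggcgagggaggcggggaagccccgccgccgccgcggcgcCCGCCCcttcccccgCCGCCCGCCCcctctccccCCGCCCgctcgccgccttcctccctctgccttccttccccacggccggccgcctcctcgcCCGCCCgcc
The KAT5 promoter holds matches of 4 of the motifs and the ACTR5 promoter of 3, whereas INO80D holds none and YY1 holds GGGCGG alone, with overlapping copies. The INO80D promoter had H2A.Z at its start in all 8 lists.

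The deposited lists held 30603 to 79425 intervals, and all were cut to the length of the shortest, 30603, by keeping the intervals with the highest −log10 p. A gene was called occupied if at least 1 bp of an interval fell inside the 1 kb on either side of an annotated gene end, and its strongest interval was that of highest fold enrichment. A percentile is the place of that fold enrichment among the intervals of the same list, with 100 the highest. The reduced lists occupied between 59.6% and 62.0% of protein-coding genes. Scores of pairs of lists correlated across genes with Pearson's r of 0.574 to 0.759, with the lowest value between H2A.Z.1 postconfluent Exp2 and H2A.Z.2 subconfluent Exp2. The interval names begin with 1 of 3 labels, which were read here as sequencing runs. The sample labels name no run. By this reading both states of an isoform always shared a run within Exp1 or Exp2, but the 2 isoforms shared a run in Exp2 only. Peak lists hold no read counts, so the depth behind each value is unknown, and an unlisted start may hold signal under the authors' threshold.

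H2A.Z stood at nearly every gene of its own machinery, in both isoforms and both states. Of the 37 genes, 36 were occupied in all 8 lists, against 54.5% of all protein-coding genes. All 4 SRCAP-only genes, all 6 shared subunits, all 12 EP400/TIP60-only genes and all 3 chaperones or readers were among them, and 11 of the 12 INO80-only genes. The exception was YY1. The genes that were occupied did not stand out by strength: the median of their mean percentile was 79.0, against 76.9 over the 10919 genes occupied in all 8 lists. The mean percentile was above 90 in 6 of the 36 members (16.7%) and in 17.3% of all ranked genes. The median of the mean interval width was 1126 bp in the members and 1132 bp in all ranked genes. Occupancy in every list was thus more frequent in the module than over all coding genes, while strength and width were close to those of other occupied genes.

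The other gene lists give a scale for that presence. Of 18 other genes of the H2A.Z pathway, 17 were occupied in all 8 lists, with a median of mean percentiles of 80.7, and ACTB, which encodes the actin shared by several of these complexes, was occupied in 3. Of 26 genes of other remodelers, 20 were occupied in all 8 lists, while BRD7 and BAZ2A were occupied in none. The tagged genes themselves were occupied throughout, H2AZ1 between percentiles 80.7 and 98.4 and H2AZ2 between 73.5 and 97.6. Of 10 intestinal epithelial genes, 4 were occupied in all 8 lists (CDX1, CDX2, HNF4A and CDH1), and KRT20 and CDH17 in none. VIL1 was occupied in 6 lists, EPCAM in 5, and KRT8 and KRT18 in 4 each. KRT8 and KRT18 overlap on the chromosome and had the same lowest, median and highest percentiles, so the same intervals appear to be counted for both. Of 12 genes that mark other cell types, COL1A1 alone was occupied in all 8 lists and 8 were occupied in none. PECAM1 was occupied in 7 lists, CD3E in 6 and DES in 1. The shares occupied in all 8 lists, 40.0% and 8.33%, were both below the 54.5% of all protein-coding genes. An interval is not a measure of expression, and markers of both kinds were occupied in part of the lists. These markers therefore describe occupancy and do not check the identity of the cells.

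**Figure D1:**
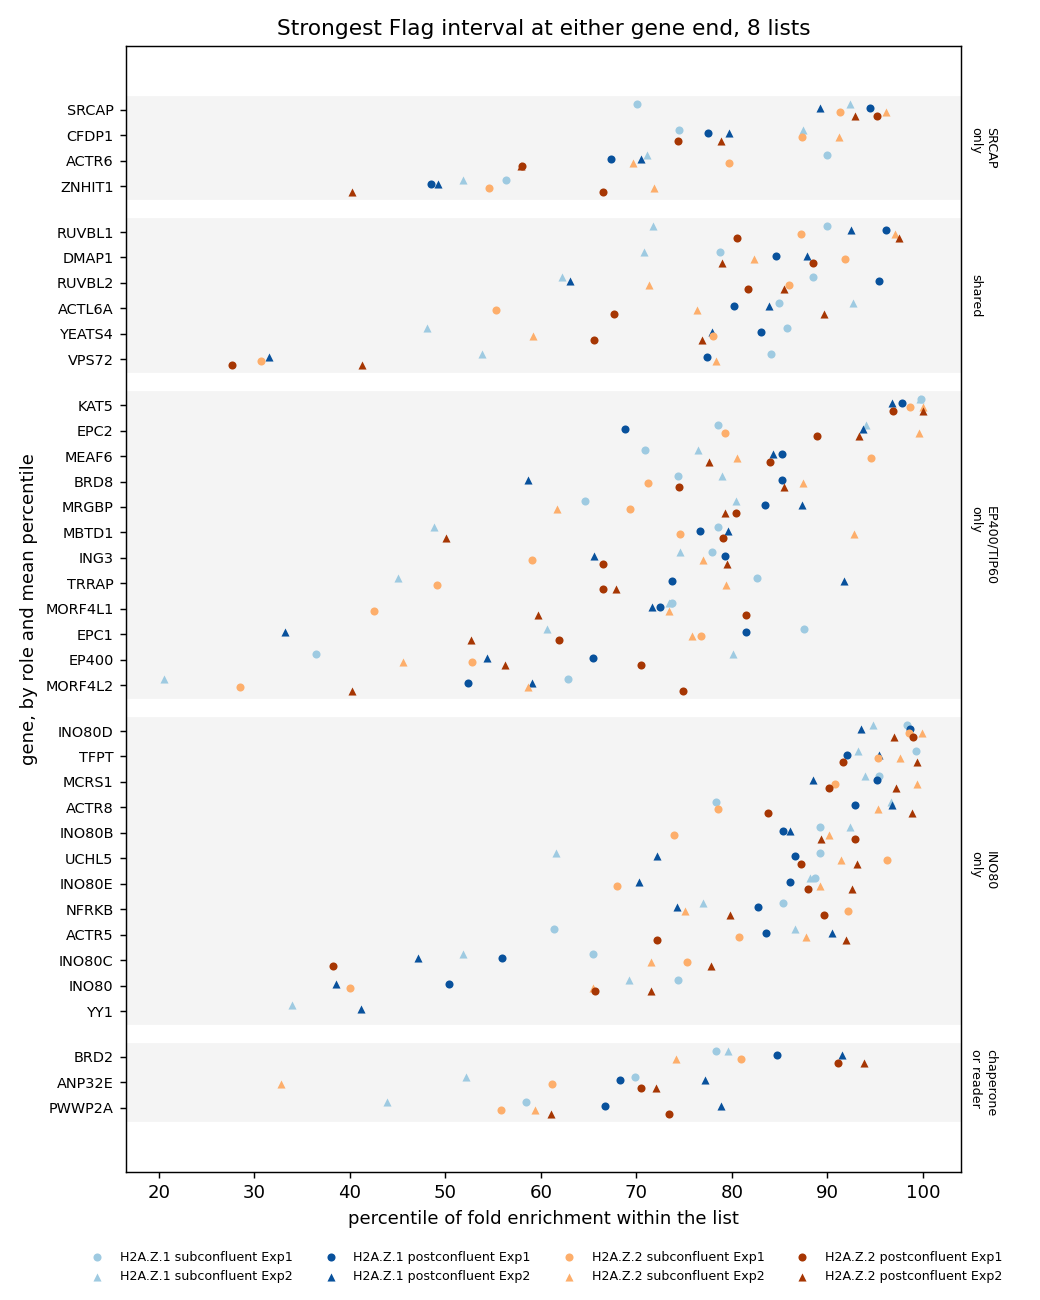
Percentile of the strongest Flag interval (x axis, with 100 the top of each list) for the 37 genes (y axis, grouped by role and ordered by mean percentile), with 1 point per list, colour for isoform and state and shape for Exp1 (circle) or Exp2 (triangle). KAT5 sits between 96.7 and 99.98 in all 8 lists, VPS72 spreads over 56.5 percentile points, and YY1 has 2 points.

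SRCAP, the ATPase that gives the SRCAP complex its name, had the highest mean percentile of the genes found in that complex alone, at 90.2. In cells with tagged H2A.Z.1 its percentiles were 70.0 and 92.3 while subconfluent and 94.5 and 89.2 after confluence (here and below, Exp1 precedes Exp2). In cells with tagged H2A.Z.2 they were 91.3 and 96.2, then 95.2 and 92.9. A single list, H2A.Z.1 subconfluent Exp1, thus stood below the other 7. ZNHIT1, a zinc-finger subunit needed for exchange, lay at the other end of this group with a mean of 54.9. Its percentiles were 56.3 and 51.9, then 48.5 and 49.2 for H2A.Z.1, and 54.6 and 71.8, then 66.5 and 40.2 for H2A.Z.2. No group of ZNHIT1 was separate from the others. ACTR6, an actin-related protein of the nucleosome-binding module, and CFDP1, the subunit related to yeast Swc5, had means of 70.5 and 81.4.

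Among the shared subunits, the RUVBL1 ATPase was highest, with a mean of 89.1. For H2A.Z.1 it stood at 89.9 and 71.8, then 96.1 and 92.5, and for H2A.Z.2 at 87.3 and 97.1, then 80.5 and 97.5. Its states and isoforms overlapped. VPS72, the YL1 subunit that binds H2A.Z directly, was the lowest of the shared group, with a mean of 53.1, and had the widest range of all members. It lay at 84.1 and 53.8, then 77.4 and 31.6 for H2A.Z.1, and at 30.7 and 78.4, then 27.6 and 41.2 for H2A.Z.2. High and low values of VPS72 occurred within the same group, and its isoforms and states overlapped. RUVBL2, DMAP1, ACTL6A and YEATS4, the last a YEATS-domain reader of acetylated histones, had means between 71.8 and 82.9.

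KAT5, the TIP60 acetyltransferase, was the most strongly occupied gene of the module, with fold enrichments between 11.2 and 23.8. For H2A.Z.1 it stood at percentiles 99.8 and 99.7, then 97.8 and 96.7, and for H2A.Z.2 at 98.6 and 99.96, then 96.9 and 99.98. Its range of 3.26 percentile points was the narrowest of the 36 genes. In H2A.Z.2 postconfluent Exp2 the interval ran over chr11:65711061-65712667, across the start of transcription at position 65712252, and in every list its summit lay 136 to 182 bp upstream of that start. MORF4L2, a subunit related to MORF4L1, had the lowest mean of all 36 genes, 49.7. Its percentiles were 62.9 and 20.6, then 52.4 and 59.1 for H2A.Z.1, and 28.5 and 58.7, then 74.9 and 40.2 for H2A.Z.2, and its fold enrichments ran from 5.59 to 9.66. EP400, the ATPase of the complex, was near the low end as well, with a mean of 57.7 and a range of 36.5 to 80.1. The 2 catalytic subunits of EP400/TIP60 therefore stood far apart: KAT5 was above EP400 in each of the 8 lists. The other subunits of this group, TRRAP, BRD8, EPC1, EPC2, ING3, MRGBP, MORF4L1, MEAF6 and MBTD1, had means between 66.3 and 87.0.

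The genes found in INO80 alone had the highest median of mean percentiles of the 5 role groups, 84.7 over 11 genes, against 72.5 for EP400/TIP60 alone. INO80D led them with a mean of 97.5. Its percentiles were 98.4 and 94.7, then 98.7 and 93.5 for H2A.Z.1, and 98.6 and 99.93, then 98.9 and 97.0 for H2A.Z.2. All 8 values of INO80D lay above 93. TFPT and MCRS1, both subunits of the INO80 N-terminal module, followed with means of 95.5 and 93.8, and ACTR8, an actin-related protein that contacts linker DNA, with 90.1. INO80, the ATPase, was the lowest of the 11, with a mean of 59.4. It stood at 74.4 and 69.2, then 50.4 and 38.5 for H2A.Z.1, and at 40.0 and 65.4, then 65.7 and 71.5 for H2A.Z.2. The means of INO80B, INO80C, INO80E, ACTR5, NFRKB and UCHL5 lay between 60.4 and 87.4.

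YY1, a zinc-finger transcription factor that is also a stable INO80 subunit, was occupied in 2 lists, both from cells with tagged H2A.Z.1. In the subconfluent Exp2 list its interval was 196 bp wide, at percentile 33.9, and lay from −1005 to −810 bp of the start of transcription. In the postconfluent Exp2 list the strongest was 237 bp wide, at percentile 41.2, and lay from 648 to 884 bp. With the lists used whole, H2A.Z.1 postconfluent Exp1 and H2A.Z.2 postconfluent Exp2 also held an interval near the start, which makes 4 of 8 lists. H2A.Z was not missing from the locus as a whole: every list held an interval downstream of the 3′ end of YY1, between 45610 and 47087 bp from the start. The YY1 promoter is 82.7% G and C, the highest share of the 31 members with a sequence. Of 548 coding promoters with at least 80% G and C, 66.6% were occupied at the start in all 8 lists, against 55.8% of all 15842. Whether base composition had a part in the missing intervals at YY1 was not tested.

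Of the chaperones and readers, BRD2, a bromodomain protein that binds acetylated nucleosomes, was highest with a mean of 84.3. PWWP2A, which binds H2A.Z nucleosomes directly, was lowest with a mean of 62.2, just under ANP32E at 63.0. The values of all 3 by list are given with the comparison of states, where they were among the larger differences.

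No gene of the module passed the test between subconfluent and postconfluent cells. Percentiles were turned into normal scores within each list (mean 0, SD 1 over the 10919 genes), and limma was fitted to all of them with 4 group means. Of the 36 genes, 0 passed at a Benjamini-Hochberg adjusted p under 0.05 in limma, against 0.055% of all genes (6 of 10919), and 0 had an unadjusted p under 0.05, against 9.13% of all genes. After confluence 19 of the 36 were higher by their mean, and the median difference was 0.03 of a score unit, against −0.00 over all genes. Increases and decreases were about equal in number, and none of the differences passed the test.

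The largest differences between states were in EPC1 and BRD2, in opposite directions. EPC1, a scaffold of the TIP60 complex, stood at 87.6 and 60.6, then 81.5 and 33.2 for H2A.Z.1, and at 76.8 and 75.9, then 61.9 and 52.6 for H2A.Z.2. Its postconfluent mean was lower by a score difference of −0.72 ± 0.413 (SE; limma adjusted p = 0.612), and the value was lower after confluence in both isoforms of both experiments. BRD2 stood at 78.4 and 79.6, then 84.7 and 91.5 for H2A.Z.1, and at 80.9 and 74.2, then 91.1 and 93.9 for H2A.Z.2. All 4 postconfluent values of BRD2 were above all 4 subconfluent values, with a difference of 0.71 ± 0.344 (SE; limma adjusted p = 0.551). ACTR6 stood at 89.9 and 71.1, then 67.3 and 70.4, and at 79.7 and 69.7, then 58.0 and 57.9, a difference of −0.67 ± 0.358 (SE; limma adjusted p = 0.589). The ACTR6 values overlapped between states, and the difference ranged from −1.4 to −0.18 over the alternative settings. The strongest ACTR6 interval was not the same one in every list. Its summit lay from 68 to 210 bp of the start in some lists and from −1485 to −1420 bp in others. Both postconfluent H2A.Z.2 values came from the upstream interval.

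The chaperone ANP32E stood at 69.8 and 52.1, then 68.3 and 77.2 for H2A.Z.1, and at 61.1 and 32.8, then 70.5 and 72.1 for H2A.Z.2. Its difference was 0.65 ± 0.365 (SE; limma adjusted p = 0.608), and became −0.30 where the summit, not any base of the interval, had to lie in the window. For VPS72 the difference was −0.65 ± 0.439 (SE; limma adjusted p = 0.666), with overlapping states, and its changes were −0.35 and −0.66 for H2A.Z.1 and −0.10 and −1.50 for H2A.Z.2. VPS72, EPC1, ACTR6 and MCRS1 were the 4 members of 36 lower after confluence in both isoforms of both experiments, against 10.2% of all ranked genes. MRGBP and BRD2 were the 2 that were higher in all of these, against 9.93%. PWWP2A stood at 58.5 and 43.9, then 66.7 and 78.8 for H2A.Z.1, and at 55.9 and 59.3, then 73.4 and 61.0 for H2A.Z.2. Like BRD2, it had all 4 postconfluent values above all 4 subconfluent ones. PWWP2A and BRD2 were the 2 members of 36 whose states did not overlap with postconfluent values higher, against 2.77% of all ranked genes, and 0 members were separate in the other direction, against 2.62%. Neither passed the test. The states of PWWP2A were only just separate, at 61.0 against 59.3, and its score changed by −0.01 in H2A.Z.2 Exp2. Its strongest interval also differed in position between lists. The summits lay from −601 to −520 bp of the start in some lists and from 114 to 593 bp in others. The PWWP2A values thus mix upstream and downstream intervals.

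SRCAP requires a separate account because its value turned on the window. With 1 kb its difference between states was 0.31 (limma adjusted p = 0.845), and without H2A.Z.1 subconfluent Exp1 it was −0.03. With a window of 500 bp the difference was 2.81 ± 0.392 (SE; limma adjusted p = 0.00704), and SRCAP was the one member that passed any test under any alternative setting. The percentiles in that window were 70.0 and 28.9, then 94.5 and 89.2 for H2A.Z.1, and 16.8 and 1.43, then 95.2 and 92.9 for H2A.Z.2. The positions of the intervals show where the values came from. In 3 of the 4 subconfluent lists the strong interval upstream of SRCAP ended 633 or 634 bp before the start and so lay outside 500 bp, whereas in the 4 postconfluent lists it reached to 200 bp or nearer. The subconfluent H2A.Z.1 Exp1 interval ended at −153 bp, like those after confluence. Of the 3 lists whose strong interval ended farther off, H2A.Z.1 Exp2 and H2A.Z.2 Exp1 held a further, weaker upstream interval, from −468 to −241 bp after a gap of 165 bp and from −451 to −190 bp after a gap of 181 bp. In these lists the upstream stretch was divided, and its weaker part reached about as near the start as after confluence. H2A.Z.2 subconfluent Exp2 had no such interval, and its next one began at 16 bp.

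**Figure D2:**
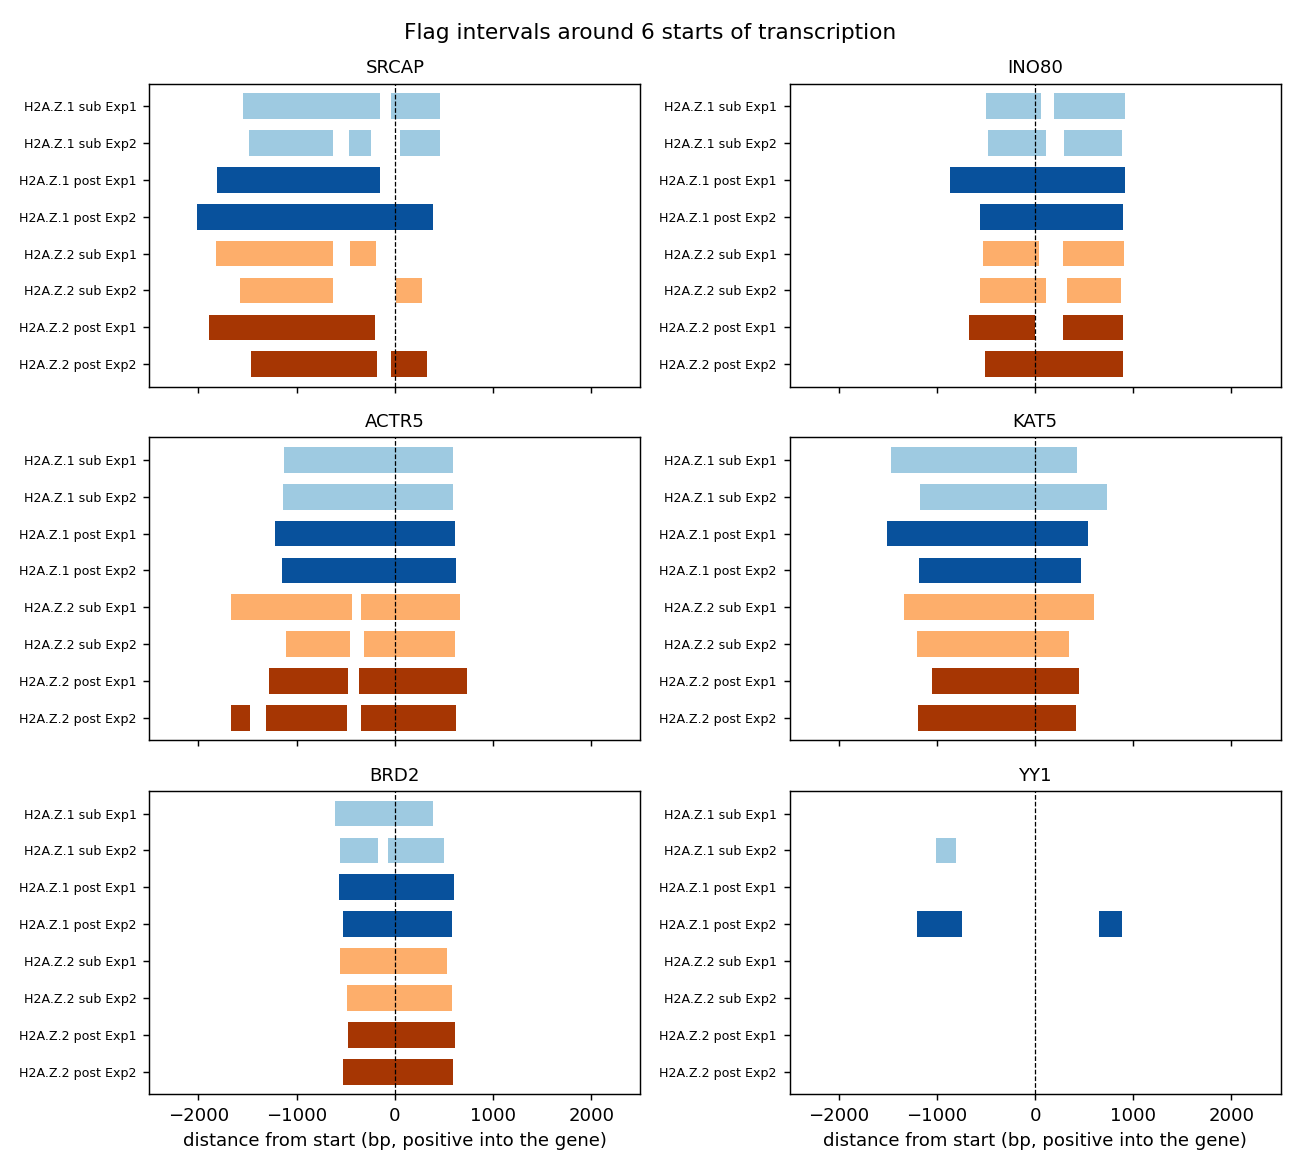
Flag intervals of the 8 reduced lists (rows) around the start of transcription of 6 genes, with the distance from the start in bp on the x axis, positive into the gene, and the start as a dashed line. The upstream SRCAP interval ends at −633 or −634 bp in 3 subconfluent lists, ACTR5 has 1 interval in each H2A.Z.1 list and 2 or more in each H2A.Z.2 list, and YY1 has intervals in 2 lists.

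No gene of the module passed the test between the isoforms either. For the isoform contrast (H2A.Z.2 minus H2A.Z.1), 0 of 36 members passed in limma, against 0% of all genes, and 1 member, UCHL5, had an unadjusted p under 0.05, against 3.75% of all genes. The mean was higher for H2A.Z.2 in 23 of 36 members, with a median difference of 0.12, against 50.0% of all genes and a median of 0.00. No member had separate percentiles for the isoforms, against 0.943% of all ranked genes with H2A.Z.2 higher and 1.17% with it lower. In Exp1 the isoforms carried different run labels, so that isoform and run cannot be told apart there. Values within the run shared in Exp2 are given beside the means.

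UCHL5, a deubiquitinase bound to INO80, had the largest isoform difference. It stood at 89.2 and 61.5, then 86.6 and 72.2 for H2A.Z.1, and at 96.2 and 91.4, then 87.2 and 93.1 for H2A.Z.2. The difference was 0.86 ± 0.381 (SE; limma adjusted p = 0.999), and 1.32 within the run shared in Exp2. For VPS72 the difference of −0.61 ± 0.439 (SE; limma adjusted p = 0.999) came from Exp1, at −1.77, and had the other sign in Exp2, at 0.55. ACTL6A, the actin-related protein BAF53A, stood at 84.9 and 92.6, then 80.2 and 83.8 for H2A.Z.1, and at 55.3 and 76.4, then 67.6 and 89.7 for H2A.Z.2. Its difference was −0.61 ± 0.371 (SE; limma adjusted p = 0.999), and −0.36 within the shared run. EPC2, a homologue of EPC1, stood at 78.6 and 94.0, then 68.8 and 93.7, and at 79.3 and 99.6, then 88.9 and 93.3. Its difference was 0.59 ± 0.457 (SE; limma adjusted p = 0.999), with 0.61 in Exp1 and 0.56 in Exp2. In Exp1 it came from postconfluent cells, at 1.09 against 0.14 in subconfluent cells. In Exp2 it came from subconfluent cells, at 1.21 against −0.08 after confluence. Without a single sample the EPC2 difference ranged from 0.05 to 1.12. For INO80D the isoform difference was 0.59 ± 0.378 (SE; limma adjusted p = 0.999), nearly all of it in Exp2, at 1.08 against 0.11 in Exp1.

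A test of whether the change with confluence differed between the isoforms found 0 of 36 members and 0% of all genes in limma. INO80 alone of the members had an unadjusted p under 0.05, against 3.18% of all genes. The largest estimates were those of MBTD1 and INO80. MBTD1, a malignant-brain-tumour-domain reader in TIP60, had −1.56 ± 0.802 and INO80 had 1.53 ± 0.696 (SE; limma adjusted p = 1.00 for each). MBTD1 stood at 78.6 and 48.8, then 76.6 and 79.6 for H2A.Z.1, and at 74.5 and 92.7, then 79.0 and 50.1 for H2A.Z.2. Its extremes were all in Exp2, with changes of 1.25 for H2A.Z.1 and −2.11 for H2A.Z.2, against −0.08 and 0.16 in Exp1. For INO80 the changes were −0.97 and −1.09 with H2A.Z.1 and 0.81 and 0.20 with H2A.Z.2. The summit of its strongest interval lay at −376 and −124 bp from the start in the H2A.Z.1 postconfluent lists, against 471 to 581 bp in all others. The INO80 changes for H2A.Z.1 thus mix summits on different sides of the start. INO80E, a small subunit of INO80, stood at 88.7 and 88.2, then 86.1 and 70.2, and at 67.9 and 89.2, then 88.0 and 92.6, an estimate of 1.16 ± 0.727 (SE; limma adjusted p = 1.00).

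**Figure D3:**
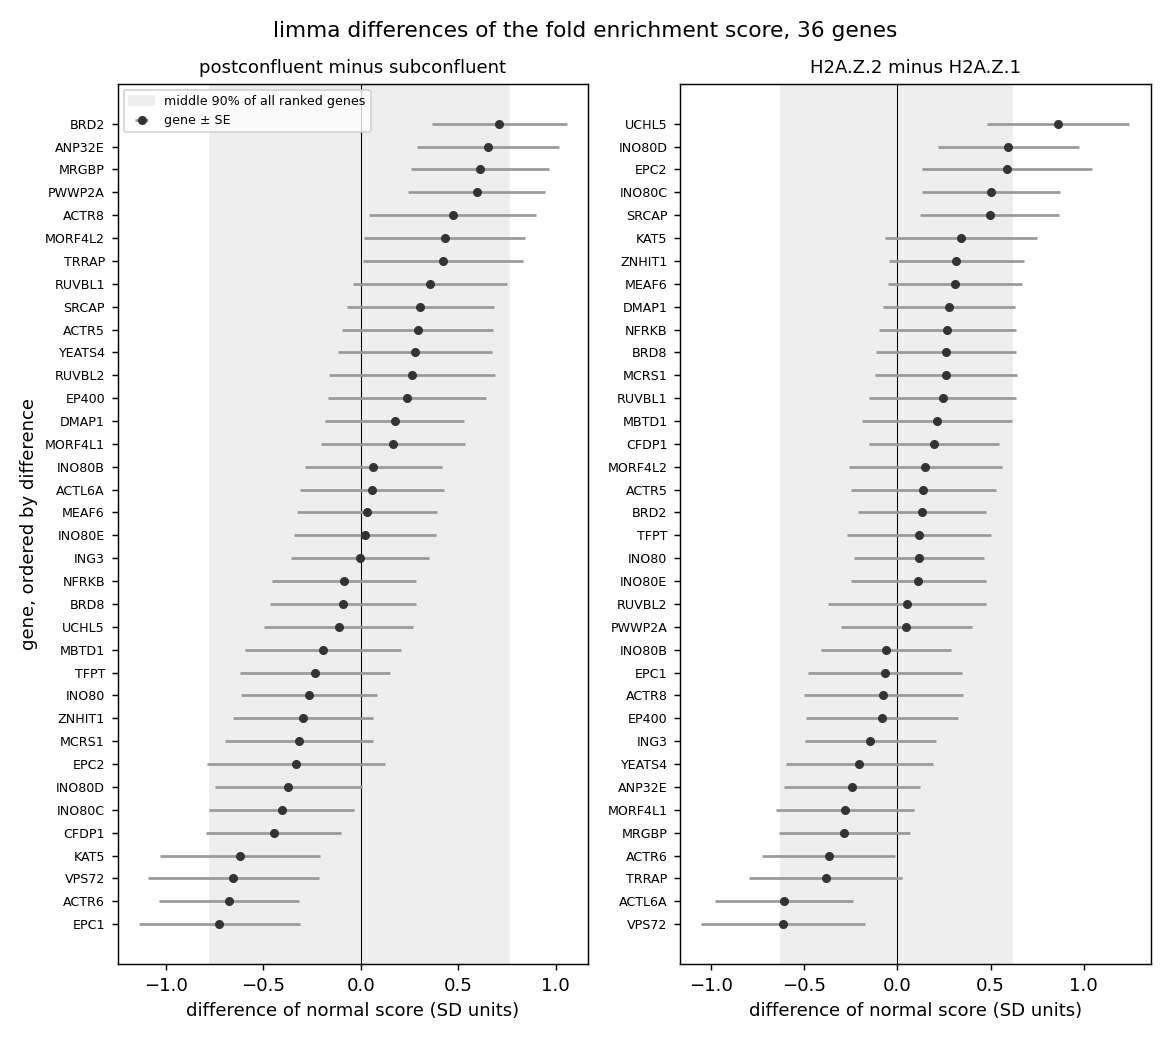
Differences of the normal score (x axis, SD units; points are estimates, bars 1 SE) for the 36 ranked genes (y axis), by state in the left panel and by isoform in the right. EPC1 at −0.72 and BRD2 at 0.71 bound the state differences, UCHL5 at 0.86 leads the isoform differences, and no gene passed at an adjusted p under 0.05 in limma.

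Interval widths differed widely among the members, and no member passed the tests of width. The widest H2A.Z domain lay at CFDP1, with 2613 and 1781 bp, then 2653 and 2454 bp for H2A.Z.1, and 2558 and 1787 bp, then 2765 and 2456 bp for H2A.Z.2. INO80E came next, between 1925 and 2116 bp, and EPC2 lay between 1710 and 2317 bp. These 3 genes, 8.33% of the 36, had mean widths of at least 2 kb, against 5.15% of all ranked genes. The INO80E interval also covered an end of the neighbouring gene HIRIP3 in all 8 lists, and the CFDP1 interval that of LOC124903723 in 6, so a domain at those pairs cannot be assigned to a single gene. The narrowest means were at EPC1 with 546 bp, MORF4L2 with 569 bp and MEAF6 with 580 bp. Strength and width were separate at INO80D, whose strongest interval was of percentile 93.5 or above in all 8 lists and yet 557 to 795 bp wide. INO80D held 2 intervals at the start in every list, so this is the width of 1 of them.

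By state, the limma test of width scores passed 0 of 36 members, against 0.0458% of all genes, and 5 members had an unadjusted p under 0.05, against 7.91% of all genes. BRD8, the bromodomain subunit of TIP60, had the clearest ordering: 1645 and 1598 bp, then 1306 and 995 bp for H2A.Z.1, and 1672 and 1423 bp, then 1063 and 1055 bp for H2A.Z.2. All 4 subconfluent BRD8 intervals were wider than all 4 postconfluent ones, with a score difference of −1.09 ± 0.220 (SE; limma adjusted p = 0.303). The share of all ranked genes with widths separate by state was not counted. The upstream edge of the BRD8 interval lay between −1235 and −968 bp of the start in subconfluent lists and between −844 and −465 bp after confluence. The edge inside BRD8 lay between 362 and 597 bp throughout. This interval covered an end of the neighbouring gene KIF20A in 7 lists, so the ordering cannot be assigned to BRD8 alone. At INO80 the mean width score was higher after confluence, with 723 and 594 bp, then 1780 and 1464 bp for H2A.Z.1, and 621 and 557 bp, then 610 and 1409 bp for H2A.Z.2. Its difference was 1.13 ± 0.366 (SE; limma adjusted p = 0.497). ANP32E had the largest estimate, 1.76 ± 0.846 (SE; limma adjusted p = 0.665), from 2340 and 305 bp, then 1916 and 1796 bp for H2A.Z.1, and 365 and 651 bp, then 1673 and 1766 bp for H2A.Z.2. The states overlapped, since H2A.Z.1 subconfluent Exp1 had the widest interval of all. H2A.Z.2 subconfluent Exp1 also held a wide interval at ANP32E, of 1734 bp and a fold enrichment of 6.54, beside the narrow one of 365 bp and 7.67 that was counted as strongest. BRD8 and, in the next paragraph, ACTR5 were chosen after their widths were seen, as the members of smallest unadjusted p.

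By isoform, 0 of 36 members passed in limma, against 0.0183% of all genes, and 4 had an unadjusted p under 0.05, against 6.67%. ACTR5, an actin-related protein of the INO80 core, measured 1725 and 1728 bp, then 1837 and 1771 bp for H2A.Z.1, and 1014 and 935 bp, then 1103 and 964 bp for H2A.Z.2. Every H2A.Z.1 interval was wider than every H2A.Z.2 interval, in the shared run as well, and the score difference was −1.06 ± 0.218 (SE; limma adjusted p = 0.370). The share of all ranked genes with widths separate in this way was not counted. Over those genes the median width was 1020 to 1277 bp in H2A.Z.1 lists and 816 to 1185 bp in H2A.Z.2 lists. ZNHIT1 had the largest estimate, −1.49 ± 0.506 (SE; limma adjusted p = 0.703), from 1338 and 2003 bp, then 2102 and 2009 bp for H2A.Z.1, and 1533 and 407 bp, then 1135 and 553 bp for H2A.Z.2. RUVBL2 followed with −1.18 ± 0.464 (SE; limma adjusted p = 0.703), from 2223 and 2135 bp, then 2070 and 1573 bp, and from 1637 and 375 bp, then 1156 and 1596 bp. Both ZNHIT1 and RUVBL2 overlapped between the isoforms, and their intervals covered an end of PLOD3 in 6 lists and of GYS1 in 7.

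**Figure D4:**
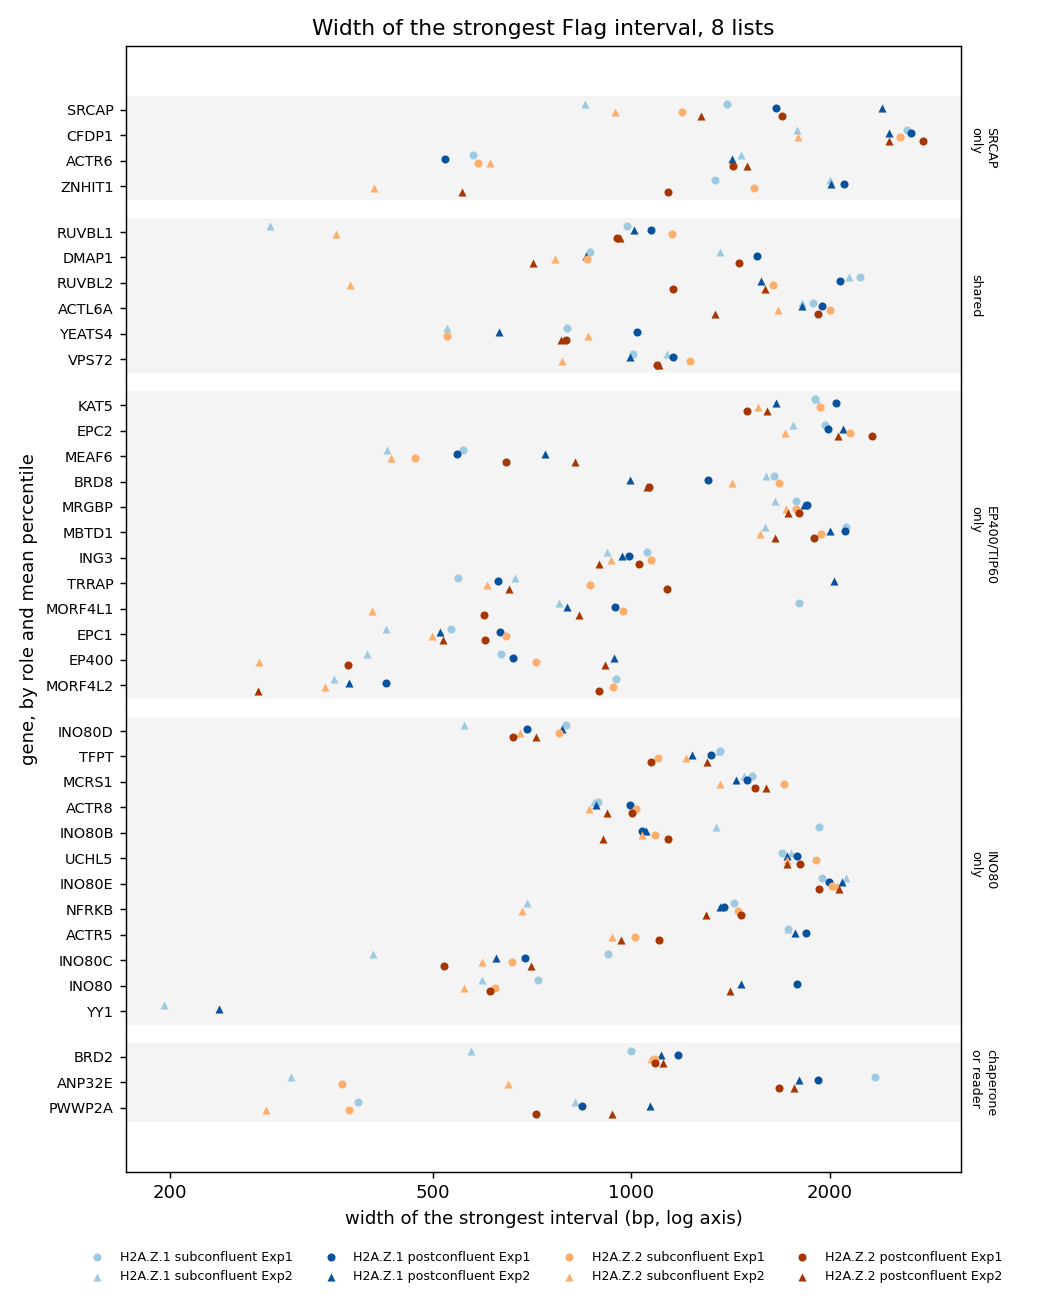
Width of the strongest Flag interval (x axis, bp, log scale) for the 37 genes (y axis, grouped by role), with 1 point per list, coloured by isoform and state, circles for Exp1 and triangles for Exp2. BRD8 has its 4 postconfluent points, 995 to 1306 bp, below its 4 subconfluent points, and ACTR5 its 4 H2A.Z.2 points, 935 to 1103 bp, below its 4 H2A.Z.1 points. The share of all genes with such separate widths was not counted.

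The positions of the intervals show how these widths arose. At ACTR5 a single interval ran across the start in all 4 H2A.Z.1 lists, from −1130 to 594, −1140 to 587, −1223 to 613 and −1150 to 620 bp. In all 4 H2A.Z.2 lists the same stretch was divided, with the interval over the start beginning at −348, −317, −365 or −343 bp and an upstream interval ending at −435, −462, −476 or −492 bp. The gap between them was 86 to 148 bp. ACTR5 was the 1 member of 29 with more intervals at the start in every H2A.Z.2 list than in any H2A.Z.1 list, against 0.158% of all genes, and 0 members had fewer, against 0.0565%. The number of intervals moved with the library over all genes, from a mean of 1.24 per start in H2A.Z.1 postconfluent Exp2 to 1.47 in H2A.Z.2 subconfluent Exp2, and the part of this in the division at ACTR5 was not tested. At INO80 all 4 subconfluent lists held 2 intervals, with gaps of 133 to 246 bp downstream of the start, and 3 of the 4 postconfluent lists held 1 interval across the gap. H2A.Z.2 postconfluent Exp1 was the exception, with a gap of 289 bp. By state, 0 members were separate in the number of intervals, against 0.0452% of all genes with more after confluence and 0.203% with fewer.

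At the level of the start of transcription, 31 members had a known strand, and 29 of them held an interval at the start in all 8 lists (93.5%), against 55.8% of 15842 coding genes. MCRS1 did so in 7 lists, with the summit of its strongest interval at a median of −1604 bp from the start used here, and YY1 in 2. A single interval in all 8 lists was seen at 11 of the 29 (37.9%), against 39.1% of all genes. EP400, INO80D, ACTR6 and PWWP2A had 2 or more in all 8 lists (13.8% of the 29, against 8.65%). EP400 was the plainest case of a flanked start, with 1 interval ending 143 to 261 bp upstream and another beginning 34 to 390 bp downstream in every list. The summit of the strongest interval lay downstream of the start in 11 of the 29 (37.9%) and in 47.7% of all genes, with a median position of −160 bp against −60.5 bp. KAT5 and INO80B had an interval within 1 kb of the annotated 3′ end in all 8 lists, 2 of 31 members (6.45%) against 4.51% of the coding genes, and the others had none there in any list.

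The promoters of the module were close in base composition to those of other coding genes. The median G and C content over the 31 members was 63.7%, against 62.7% in all 15842 promoters and 66.0% in the 8846 occupied at the start in all 8 lists. The median ratio of observed to expected CpG was 0.86, against 0.76 and 0.86. The YY1 motif, written AANATGGC and searched on both strands, was in 8 of the 31 (25.8%), namely ZNHIT1, KAT5, BRD8, EPC1, EPC2, MEAF6, INO80E and ACTR5. It was in 7.92% of all promoters and in 11.0% of the occupied ones. In the sequences above it begins 13 bp into the transcribed part of KAT5 and 16 bp into that of ACTR5, on the plus strand. The NRF1 motif, searched likewise on both strands, was in 9 members (29.0%), SRCAP, YEATS4 and BRD2 among them, and in 8.58% of all promoters and 13.1% of the occupied ones.

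The ETS motif, written CCGGAAG, was in 9 members (29.0%), against 14.2% of all promoters and 21.3% of the occupied ones, with 2 copies at KAT5. The SP1 motif, the GGGCGG that recurs at YY1, was in 19 members (61.3%), against 58.3% and 74.0%.

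Of the remaining motifs, all searched on both strands, the CCAAT box was in 9 members (29.0%), against 36.4% of all promoters and 36.6% of the occupied ones. The E-box, written CACGTG, was in 2 members, KAT5 and MCRS1 (6.45%), against 8.82% and 10.8%. The TATA box, written TATAAA, was in 2 members, ZNHIT1 and RUVBL1 (6.45%), against 9.75% and 4.66%. No 2 of the motifs contain one another. A match is a description of the letters and does not show that a factor binds, and the motifs were chosen with the members in view, so these shares carry no test.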

How the data were processed

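Flag chromatin immunoprecipitation was sequenced in 8 samples, and the 9 other samples of the 17 in the labels are not analysed here. Per the submitters' processing notes, the build was hg38 and the tools included BWA and deepTools. The sources used here name no peak caller or control, nor any use of the spike-in. The authors deposited 1 interval list per sample, with the interval score, the fold enrichment (a ratio), −log10 p and −log10 q, as the narrowPeak format defines them. Values were used only to rank or filter intervals within a list, because no counts or depth come with them.

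Members were matched by symbol to RefSeq genes of GRCh38.p14. Promoter sequences and strand came from RefSeq for 31 members and were not used for ANP32E, ACTL6A, TRRAP, ING3, MORF4L2 and VPS72. Scores and widths were ranked within list, turned into normal scores and tested with limma 3.58.1 in R 4.3.3, with Benjamini-Hochberg adjustment over 10919 genes and a threshold of 0.05. The fit was tested on simulated data. Tables were made with Python 3.11.15 and pandas 2.3.3.

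Values by list are given for members not occupied throughout, for the highest and lowest of each role, and for the 5 largest state and isoform differences. They are also given for the 3 largest interactions and for the 2 largest width differences by state and by isoform. Of the 3 widest members, CFDP1 has its widths by list, and INO80E and EPC2 have their range. The 3 narrowest have their mean width. The members and all gene lists were chosen with earlier results of these data known. Alternatives covered list length, threshold, window, ranking, genes included, replicate and run blocks, and leaving out each sample.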

Additional observations from a re-analysis of the deposited data

How the results depend on the processing

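Peak lists give no depth, so a gene outside a list may hold H2A.Z below the authors' threshold, and with 2 samples a group a missed threshold does not show equal occupancy. All 36 members stayed occupied in all 8 lists without any single sample, in whole lists, at a −log10 q of at least 5, in a 2 kb window and with 1 gene end. The number was 35 by summit or in 500 bp, 29 of 31 at the start of transcription, 28 in lists of equal covered length and 26 in lists of 15301 intervals. The tests of isoform and of interaction for fold enrichment passed 0 genes in limma under every alternative. The state test, with 6 genes, passed 14 at −log10 q of at least 5, 2 with genes occupied in any list, 0 in lists of 15301 intervals and of equal covered length, 44 ranked by −log10 p, 3 by summit and 13 in whole lists. It passed 0 to 12 genes without a single sample: 12 without H2A.Z.1 postconfluent Exp1, 2 when H2A.Z.2 subconfluent Exp1 was left out, with 0 for the omission of H2A.Z.1 postconfluent Exp2, H2A.Z.2 postconfluent Exp1 or H2A.Z.2 subconfluent Exp2. Its width counterpart, with 5 genes, passed 12 with genes occupied in any list, 1 in lists of 15301 intervals, 2 in equal covered length, 3 by summit, 2 in windows of 2 kb and of 500 bp, and 0 to 4 without a single sample. The isoform test of width, with 2 genes, passed 0 with genes occupied in any list, 7 in lists of 15301 intervals, 6 in equal covered length, 1 at the start of transcription, 4 in 500 bp, and 0 to 0 without any single sample. Samples of the same experiment number were not treated as pairs. Their deviations correlated at 0.207 and 0.158 within an isoform and at −0.053 to 0.047 across isoforms. With the experiment number as a replicate block the state test passed 14 genes, and 3 for width. With the sequencing run as the replicate block, an alternative chosen after seeing the data, it passed 20, and the isoform test of width 0. None of these genes was a member, except SRCAP by state in the 500 bp window, at 2.81 with a limma adjusted p of 0.00704.

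The median percentile of the members, 79.01, was 86.14 at −log10 q of at least 5, 64.94 in lists of 15301 intervals, 68.7 in equal covered length, 81.37 at the start of transcription and 86.97 in whole lists, and 77.75 to 80.09 without a single sample. Lists of other lengths change what a percentile is counted over. The 2 members with separate states became 1 in lists of 15301 intervals, in equal covered length and ranked by −log10 p, and 2 to 4 without a single sample. The 0 members with separate isoforms became 0 to 2. Signs of single members were followed only for the largest fold enrichment differences of each contrast and for SRCAP by state. Among these, signs reversed in 3 cases, and the cause was not tested. ANP32E by state was −0.3 by summit, and VPS72 by isoform was 0.55 with the sequencing run as the replicate block. SRCAP by state ranged from −0.03 to 0.64 without a single sample.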

Other observations

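At INO80B, which encodes a small subunit of the INO80 complex, the strongest interval was the one at its 3′ end, with a median summit 2776.5 bp from the start, and it covered an end of the neighbouring gene WBP1 in 3 lists. Of the members whose strongest interval lay at the start, several shared it with a neighbour: TFPT with PRPF31, UCHL5 with RO60 and MBTD1 with UTP18 in all 8 lists, BRD8 with KIF20A in 7 and RUVBL1 with EEFSEC in 6. H2A.Z at these starts cannot be assigned to the member alone.

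The order of EP400 and KAT5 was matched by that of INO80 and INO80D: in both complexes the ATPase gene was near the bottom of its group and another subunit at the top, whereas SRCAP, the ATPase of the third complex, was at the top. These orders were seen in the values and carry no test.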
